A study of Mus musculus with 6 samples.

Results

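Fatty acid desaturases and elongases are described here in mouse TgSpi1 erythroleukaemia cells, a line of leukaemic erythroid blasts, with and without a knockdown of Spi1. The group holds 10 genes, Fads1, Fads2, Fads3, Scd1, Scd2, Elovl1, Elovl5, Elovl6, Elovl7 and Fasn, of 25628 gene symbols in the count table, and was taken by symbol. Fasn is neither a desaturase nor an elongase but the synthase that makes palmitate. All 10 passed the filter on low counts, as did 14158 of the 25628 symbols. The genes were selected on function and on how the same libraries differed between doxycycline and untreated cells, so that their values in that comparison are a description and no test of them.

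Poly(A) RNA of 6 cultures was sequenced, 3 untreated and 3 exposed to doxycycline for 48 h, numbered 1 to 3 in each group and called biological replicates in the labels. Every culture came from the same TgSpi1 cells (line 722), which overexpress Spi1, carry a doxycycline-inducible shRNA against it and were grown with erythropoietin. The untreated cultures carry the shRNA too, and there was no doxycycline group without it, so that effects of the drug, of the shRNA and of Spi1 loss cannot be told apart. The labels do not say whether 722 is a single clone, and p-values measure the spread between these cultures.

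Long fatty acids are built by fatty acid synthase up to palmitate, lengthened by the ELOVL elongases in the endoplasmic reticulum and given double bonds by desaturases. The stearoyl-CoA desaturases make monounsaturated fatty acids such as oleate. FADS1 and FADS2 act on dietary essential fatty acids and lead to arachidonate and docosahexaenoate, while FADS3 is a relative that acts on sphingoid bases. Many genes of the pathway are targets of the sterol-sensing factors SREBP1 and SREBP2 and of the liver X receptors. Red cell precursors use the products for the membrane phospholipids and sphingolipids that fix the fluidity of the cell surface.

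Promoter sequence was taken from RefSeq (GRCm38.p6) for 7 of the 10 genes, in windows from 250 bases before to 50 bases after a start. Fads1, Scd1 and Scd2 were not matched. The motifs searched on both strands were CCAAT (NF-Y), GGGCGG (Sp1), GAGGAAGT (PU.1) and TCACNCCAC (sterol regulatory element). They occurred in 37.4%, 35.7%, 3.2% and 1.24% of all 32851 windows of that length. A match is a description of letters and no evidence of binding, and nothing follows from a missing match.

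The windows of 3 genes are shown up to the first annotated base of the gene, since they belong to the member with the largest difference between the groups (Fads3), to the synthase (Fasn) and to the member with a PU.1 octamer before its start (Elovl6). Capitals mark matches, on either strand, to the first 3 of those motifs. Fads3 lies on the plus strand at chr19:10041298-10041547, Fasn on the minus strand at chr11:120824548-120824797 and Elovl6 on the plus strand at chr3:129532136-129532354.
Fads3: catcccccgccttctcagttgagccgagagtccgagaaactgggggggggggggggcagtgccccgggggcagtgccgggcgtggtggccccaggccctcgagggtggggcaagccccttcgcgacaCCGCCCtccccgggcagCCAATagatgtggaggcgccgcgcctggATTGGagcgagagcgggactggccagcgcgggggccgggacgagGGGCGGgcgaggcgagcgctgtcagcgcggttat
Fasn: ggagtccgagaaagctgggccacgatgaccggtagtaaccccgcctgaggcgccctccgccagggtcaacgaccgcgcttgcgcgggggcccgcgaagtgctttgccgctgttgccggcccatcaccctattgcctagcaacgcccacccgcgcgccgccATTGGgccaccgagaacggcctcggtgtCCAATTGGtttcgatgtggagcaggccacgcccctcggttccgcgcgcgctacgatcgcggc
Elovl6: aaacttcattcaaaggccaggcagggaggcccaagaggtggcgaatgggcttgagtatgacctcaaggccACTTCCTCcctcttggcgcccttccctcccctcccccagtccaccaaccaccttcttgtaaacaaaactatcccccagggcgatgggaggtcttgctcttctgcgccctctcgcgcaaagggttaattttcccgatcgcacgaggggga

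The Fads3 window held 2 CCAAT matches, which begin 106 and 78 bases before the RefSeq start, and 2 GGGCGG matches, at 123 and 34 bases before it. The Fasn window held 3 CCAAT matches, at 90, 62 and 59 bases before the start, the last 2 of them overlapping. The PU.1 octamer of Elovl6 begins 180 bases before its RefSeq start and reads on the opposite strand. A second PU.1 octamer lay at base 36 after the upstream start of Elovl1, and the other members with a window had none. No member window held TCACNCCAC.

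Library totals lay between 78926663 and 101276319 counts. Spi1 (chromosome 2, 91082390 to 91115756, plus strand, GRCm38), the gene that the shRNA targets, stood at 415, 353 and 330 CPM (read counts scaled by library size) in untreated replicates 1, 2 and 3 and at 84.8, 80.4 and 62.1 CPM with doxycycline. On the log2 scale it differed by -2.27 (SE 0.17, adjusted p = 0.0030 in edgeR), and every doxycycline library was below every untreated library. Erythroid markers were plentiful: 15 genes, with the transferrin receptor Tfrc the highest in CPM, summed to 5836 to 7381 CPM untreated and to 8021 to 10552 CPM with doxycycline. Of the 14 tested, 2 rose, and with the replicate block 10 rose and 1 fell. Of all genes tested, 0.417% rose and 2.18% fell without the block, and 10.3% rose and 15.6% fell with it. Megakaryocyte markers summed to 65.0 to 299.7 CPM untreated and 38.2 to 159 CPM with doxycycline, with Pf4 the highest in CPM, and were lower with doxycycline in all 3 pairs of equal number. With the block 2 of the 7 tested rose and 4 fell, beside the same shares of all genes. Mast cell and basophil markers, led by Fcer1a, summed to 5.10 to 68.7 CPM and 8.77 to 51.5 CPM. Neutrophil markers, led by S100a9, reached at most 43.0 CPM and monocyte and macrophage markers, led by Lyz2, at most 10.5 CPM, both lower with doxycycline in all 3 pairs. The highest sums were, for lymphocyte markers, led by Cd3g, 1.77 CPM, and, for stromal and endothelial markers, led by Dcn, 1.65 CPM. Adipocyte markers, led by Fabp4, did not exceed 0.158 CPM in sum in any library. The neutrophil sum went from 0.238 to 0.0876 CPM in pair 1, from 43.0 to 11.4 CPM in pair 2 and from 9.96 to 9.38 CPM in pair 3. The erythroid sum was thus higher, the megakaryocyte and monocyte sums were lower, and the neutrophil sum was lower mainly in pair 2. These marker sums stand beside every result on doxycycline below, and their part in them was not tested. No marker in the table was at its lowest value in every library. In bulk RNA, fewer cells of a type and less RNA per cell cannot be told apart.

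With the Spi1 shRNA induced, the 3 FADS members were higher, and most of the synthase, stearoyl-CoA desaturase and elongase members were lower or level. Fads6, a gene of the FADS name outside the members, was lower in all 3 pairs. Its log2 fold change was -0.74 (SE 0.48), not called without the block, and -0.73 (SE 0.15), called lower, with it. Among the members Fads3 had the largest difference, from a mean of 5.65 to 27.2 CPM, a ratio of 4.81. Fads2 stood 1.78 times and Fads1 1.43 times as high as in untreated cells. Scd2, Fasn, Elovl5, Elovl6, Elovl7 and Elovl1 had mean ratios between 0.729 and 0.833. Scd1 was nearly level, with a ratio of 1.06.

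Without a term for the replicate number, 1 of the 10 members passed an adjusted p of 0.05 in edgeR's quasi-likelihood fit over all genes, and that member, Fads3, rose. Of all genes tested, 2.59% passed, 0.417% higher and 2.18% lower. With the replicate number as a block, 6 members passed, against 25.8% of all genes (10.3% higher, 15.6% lower): Fads1, Fads2 and Fads3 rose, and Scd2, Elovl5 and Fasn fell. No member fell without the block, also not at an unadjusted p under 0.05 or by DESeq2, while 3 were higher at that unadjusted p, as were 5.86% of all genes (15.4% in either direction, 9.56% lower). DESeq2 called 2 members, Fads2 and Fads3, both higher, and 7.15% of all genes, 2.06% higher and 5.1% lower. The groups did not overlap for 3 members, each higher with doxycycline, and for 0 members were all doxycycline values lower. Of all genes 20.6% had groups that did not overlap, 8.88% higher and 11.7% lower. Nothing is read from these counts, since the same comparison chose the members. The median log2 fold change was -0.26 over the members and 0.01 over all genes tested.

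**Figure D1:**
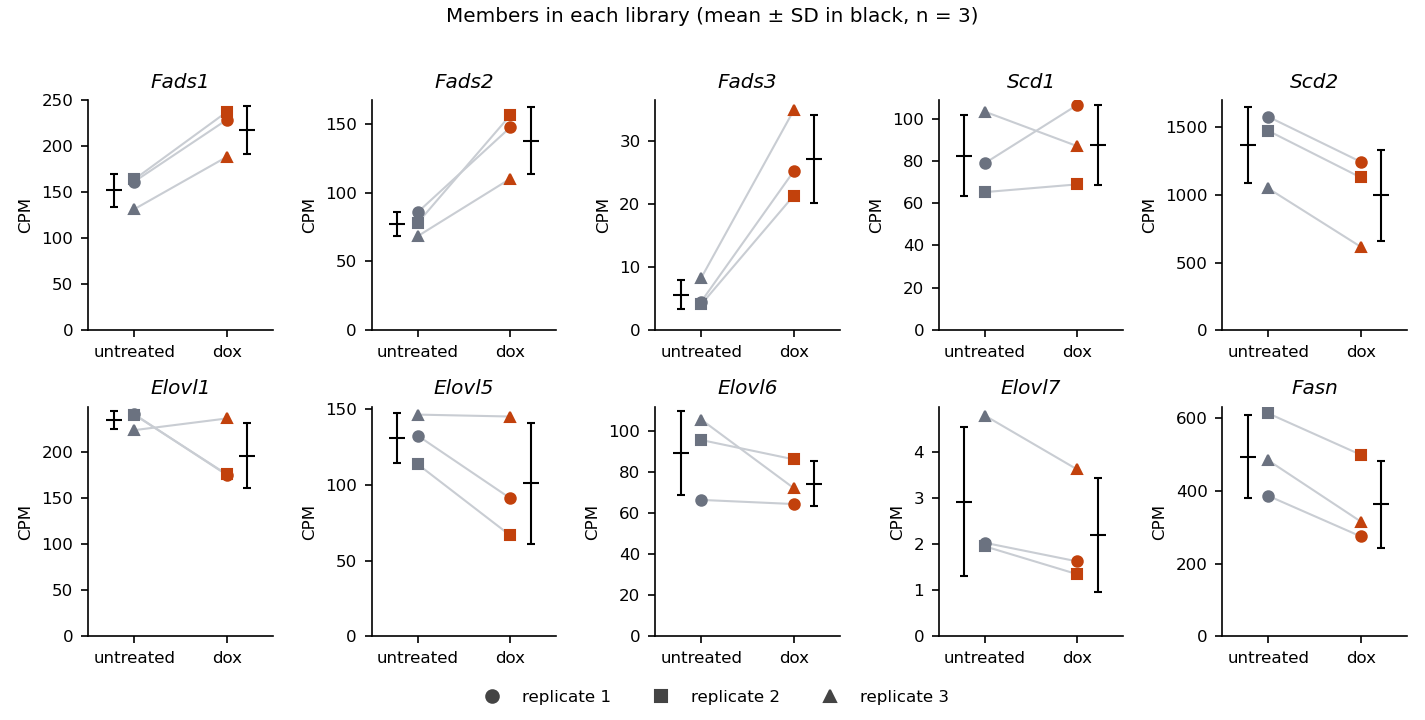
CPM of each member (vertical axis, from 0) in the 3 untreated and 3 doxycycline libraries, with grey lines joining libraries of equal replicate number and black bars for the mean ± SD of each group. Fads1, Fads2 and Fads3 are higher in all 3 doxycycline libraries than in any untreated library, and the groups of the other 7 overlap.

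Fads3 went from 4.54, 4.09 and 8.31 CPM in untreated replicates 1, 2 and 3 to 25.2, 21.4 and 34.9 CPM with doxycycline. The lowest doxycycline value exceeded the highest untreated value, and replicate 3 was the highest in both groups. Its means were 5.65 ± 2.32 and 27.2 ± 6.98 CPM (SD, n = 3 each), and its log2 fold change was 2.26 (SE 0.33). Within pairs of equal number the log2 difference was 2.47, 2.38 and 2.07. The call of Fads3 without the block was lost when untreated replicate 1, untreated replicate 2 or doxycycline replicate 1 was left out (log2 fold changes 2.15, 2.08 and 2.32), and when genes of low count were not filtered out (2.31). With the block it was called with any single replicate number left out. Those fits have fewer residual degrees of freedom than the full block fit, and they called 1248 to 4748 of all genes. A call kept or lost in them, here and below, says little on stability.

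Fads2, which catalyses the first and rate-limiting desaturation of essential fatty acids, stood at 85.8, 78.0 and 68.3 CPM in the untreated libraries and at 147, 156 and 110.1 CPM with doxycycline. All 3 doxycycline values lay above the untreated range, and replicate 3 was the lowest of each group. Means were 77.4 ± 8.74 and 138 ± 24.5 CPM (SD, n = 3 each) and the log2 fold change was 0.83 (SE 0.18, and 0.82 with an SE of 0.09 with the block). It was not called without the block, but was called by DESeq2 without the block (0.85), and by edgeR when doxycycline replicate 3 was left out (0.98).

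Fads1, the desaturase whose product is arachidonate, stood at 161.6, 164 and 131.6 CPM untreated and at 229, 237 and 189 CPM with doxycycline. Its 3 pairs gave nearly the same log2 difference, 0.50, 0.53 and 0.52. The fitted log2 fold change was 0.52 both without and with the block, with an SE of 0.15 and 0.08. Again replicate 3 was the lowest library of each group. Fads1 and Fads2 were called with the block with any single replicate number left out.

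The 3 FADS members are neighbours on chromosome 19 (GRCm38). Fads3 runs from 10041569 to 10060110 on the plus strand and Fads2 from 10062765 to 10101746 on the minus strand, so that their ends face each other across 2654 bases. Fads1 follows from 10182888 to 10196877 on the plus strand, 81.1 kb beyond the start of Fads2. Of 6 other tested genes within 100 kb of the cluster, a window chosen after values were seen, Rab3il1 rose with the block and none of the other 5 was called in either fit. Rab3il1 encodes an exchange factor for Rab GTPases and ends just before the Fads3 start, on the same strand. It stood at 0.102, 0.0765 and 0.222 CPM untreated and at 0.417, 0.719 and 1.02 CPM after induction, a log2 difference of 2.40 (SE 0.51, edgeR adjusted p = 0.0632, and 3.0e-04 in the block fit). These values were low, resting on 6 to 22 counts per untreated library and 38 to 102 counts with doxycycline. Fen1 and Tmem258, just beyond Fads1, had log2 fold changes of 0.10 (SE 0.16 and 0.19), and Fth1, the ferritin heavy chain gene, 0.35 (SE 0.21).

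Scd2, the stearoyl-CoA desaturase isoform best known from brain, stood at 1578, 1474 and 1048 CPM untreated and at 1245, 1129 and 616 CPM with doxycycline. Each doxycycline library was below its untreated partner, but the groups overlapped because untreated replicate 3 lay under doxycycline replicates 1 and 2. The log2 fold change was -0.46 (SE 0.28), and -0.50 (SE 0.11) with the block, where Scd2 fell. Without replicate number 1 that call was lost (-0.56). Without the block, leaving out single libraries gave -0.65 to -0.19.

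Scd1, the isoform best known from liver and fat, lies 87.6 kb from Scd2 on chromosome 19 (44394455 to 44407879 on the minus strand, against 44293674 to 44306864 on the plus strand, GRCm38). It stood at 78.9, 65.2 and 103 CPM untreated and at 106, 68.9 and 87.0 CPM with doxycycline. The pairs disagreed in sign, with log2 differences of 0.43, 0.08 and -0.25, and the fitted value was 0.08 (SE 0.23). Leaving out untreated replicate 2 or doxycycline replicate 1 turned it to -0.06 and -0.08. With the block and without replicate number 3 Scd1 was called higher (0.26), which it was not in the full block fit (0.09, SE 0.12). Since Scd1 and Scd2 are close paralogs, reads they share could have been split between them by the authors' counting.

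Fasn (chromosome 11, 120805846 to 120824547, minus strand, GRCm38) stood at 387, 614 and 484 CPM untreated and at 275, 500.1 and 316 CPM with doxycycline. All 3 pairs were lower, with log2 differences of -0.49, -0.30 and -0.62, and the groups overlapped through the high values of replicate 2. The log2 fold change was -0.44 (SE 0.26), and -0.47 (SE 0.09) with the block, where Fasn fell. Without replicate number 1 the block call was lost (-0.44). Leaving out single libraries without the block gave -0.74 to -0.26.

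Elovl5, the elongase of polyunsaturated fatty acids (chromosome 9, 77917364 to 77984519, plus strand, GRCm38), stood at 132, 113 and 146 CPM untreated and at 91.1, 66.6 and 145 CPM with doxycycline. The log2 difference was -0.54 and -0.77 in replicates 1 and 2, while replicate 3 was level, at -0.01. The block fit called the fall (-0.44, SE 0.13; -0.37, SE 0.28 without the block). That call was lost without replicate number 1 (-0.37) and without replicate number 2 (-0.27). The value without the block was -0.15 without doxycycline replicate 2 and -0.72 without doxycycline replicate 3.

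Elovl1, which makes very long saturated and monounsaturated chains for sphingolipids (chromosome 4, 118428093 to 118432953, plus strand, GRCm38), showed the same split. It stood at 240.4, 239.9 and 223 CPM untreated and at 175, 175 and 236 CPM with doxycycline, where replicates 1 and 2 lay under the untreated range and replicate 3 within it. The log2 fold change was -0.26 (SE 0.15), not called in either fit of all 6 libraries, and -0.45 and called with the block without replicate number 3. Exons of Elovl1 overlap those of the mitotic gene Cdc20 on the other strand, which stood at 293 ± 9.96 and 279 ± 12.0 CPM (SD, n = 3 each). The kit used here leaves reads unstranded, so the division of reads between them is uncertain.

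Elovl6, which extends palmitate to stearate (chromosome 3, 129532355 to 129638495, plus strand, GRCm38), stood at 66.4, 95.6 and 105 CPM untreated and at 64.4, 86.2 and 72.2 CPM with doxycycline, with a log2 fold change of -0.26 (SE 0.21, and -0.42 to -0.13 without single libraries). Elovl7, an elongase of saturated very long chains (chromosome 13, 108214404 to 108285683, plus strand, GRCm38), had low values, 2.03, 1.95 and 4.78 CPM untreated and 1.62, 1.35 and 3.61 CPM with doxycycline (-0.41, SE 0.51). Neither was called with or without the block, though all 3 pairs of each gene were lower. The sign for Elovl7 without the block rested on untreated replicate 3, without which it was 0.14. Exons of Elovl6 overlap the antisense gene Gm35986, whose own counts were close to the lowest value of the table.

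**Figure D2:**
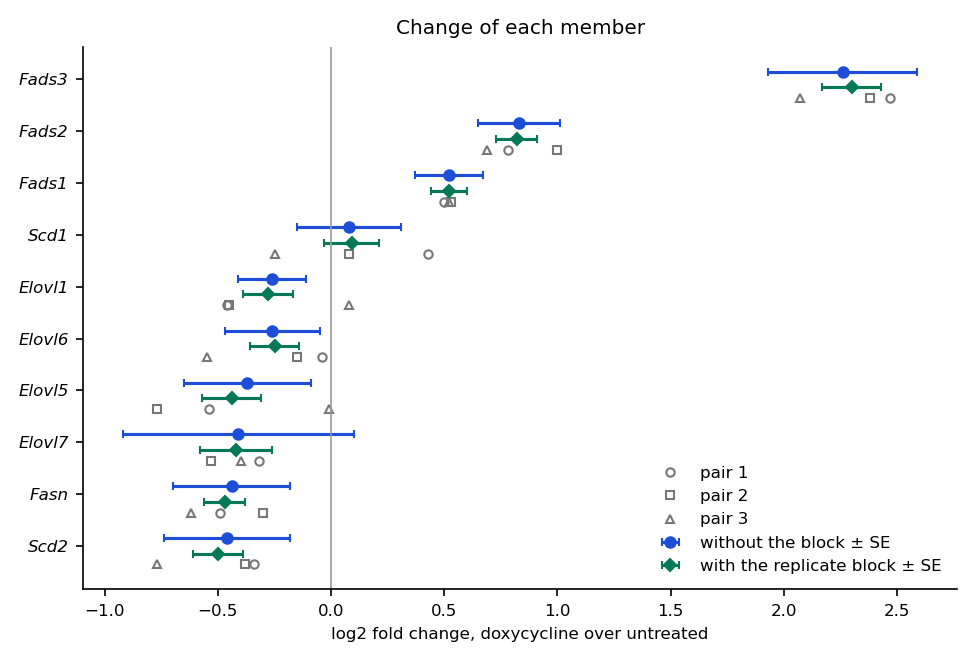
Log2 fold change of each member, doxycycline over untreated (horizontal axis), from the fit without the block (circles, ± SE) and with the replicate number as a block (diamonds, ± SE), with the difference within each pair as open symbols. The 3 FADS members stand apart above 0, from 0.52 to 2.26, and the error bars of the block fit are shorter.

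Per kb of exon, so that genes can be compared with each other, Scd2 was the highest of the 10 and Elovl7 the lowest in every library when all exons gave the length. With the longest transcript as the length, Elovl1 (130.2) stood above Scd2 (113 CPM per kb) in doxycycline replicate 3. In untreated cells the level ran from 250 ± 51.4 CPM per kb for Scd2 through 86.0 ± 3.61 for Elovl1, 45.2 ± 10.4 for Fasn, 37.1 ± 4.66 for Elovl5, 31.7 ± 3.75 for Fads1 and 23.5 ± 2.65 for Fads2. Below these came Scd1 at 16.9 ± 3.94, Elovl6 at 13.9 ± 3.16, Fads3 at 1.49 ± 0.611 and Elovl7 at 0.727 ± 0.402 CPM per kb (SD, n = 3 each). Among neighbours in this order the libraries of Fasn and Elovl5, Elovl5 and Fads1, Fads2 and Scd1, Scd1 and Elovl6, and Fads3 and Elovl7 overlapped. With doxycycline Fads1 (45.4 ± 5.43) and Fads2 (41.8 ± 7.43) came after Scd2 and Elovl1 and ahead of Fasn (33.2 ± 10.9) and Elovl5 (28.6 ± 11.4 CPM per kb; SD, n = 3 each), and these 4 overlapped. Scd2 made up 49.0% ± 5.63 of the summed level of the 10 genes in untreated cells and 40.7% ± 9.76 with doxycycline (SD, n = 3 each). With the longest transcript in place of all exons as the length, its mean share over the 6 libraries was 39.2% in place of 44.8%.

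**Figure D3:**
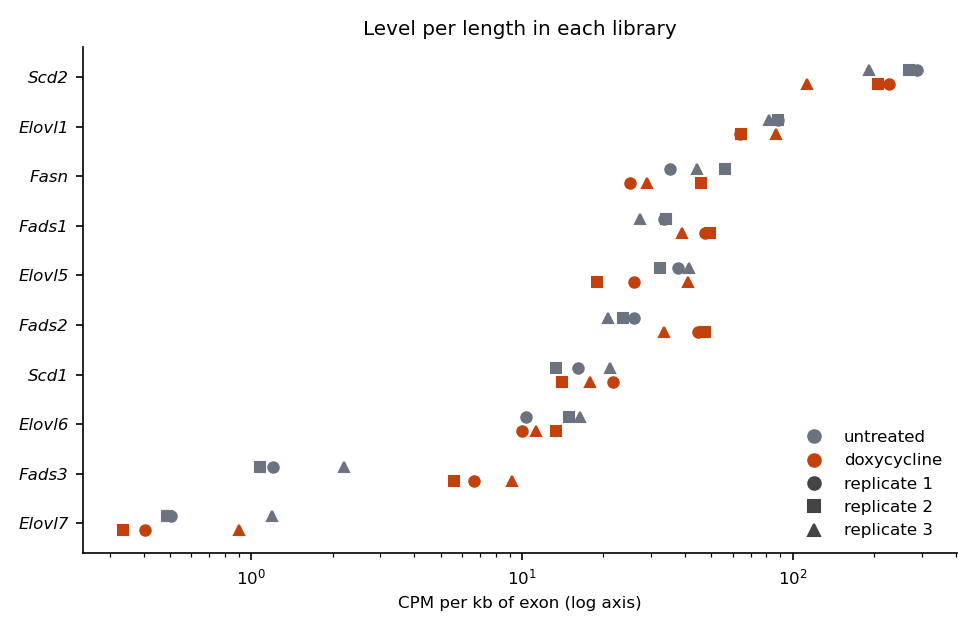
Level of each member in each library in CPM per kb of exon (horizontal log axis), grey for untreated and orange for doxycycline, with a symbol for each replicate number. On this length Scd2 is highest in every library, at 113 to 289 CPM per kb, and Elovl7 lowest, at 0.335 to 1.19.

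The shares of Fads1 and Fads3 in the summed level of Fads1, Fads2 and Fads3 did not overlap between the groups. These 3 shares add up to the whole, so that the Fads1 share was lower with doxycycline though its level was higher. They also depend on the length: the mean untreated Fads1 share was 55.8% with all exons and 62.7% with the longest transcript. The values below use all exons. Fads3 took 1.97%, 1.83% and 4.36% of the FADS level per kb in untreated replicates 1, 2 and 3 and 6.72%, 5.50% and 11.3% with doxycycline. The share of Fads1 was 55.2%, 57.9% and 54.4% untreated and 48.1%, 48.2% and 47.9% with doxycycline, while that of Fads2 lay between 40.2% and 46.3% throughout. Scd2 held 90.1% to 95.3% of the Scd1 and Scd2 level in untreated cells and 86.4% to 93.6% with doxycycline. Among the ELOVL members Elovl1 held 58.1% to 66.3% in all libraries.

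Most members also differed between the replicate numbers, a contrast of the same libraries in which the members were compared within equal numbers. In the fit with group and number, 9 of the 10 members differed between the numbers at an edgeR adjusted p under 0.05, where 43.3% of all genes tested did, and 50.9% of the 4684 genes with at least 50 mean CPM. Of the 8 members at that level, 7 differed. The members were chosen on these libraries, also within equal numbers, and this test uses the residual spread of the same block fit. Nothing is therefore read from these counts, and the adjusted p of members given below are a description. What a number marks is not in the labels.

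Elovl7 had the largest spread, with number 3 higher than number 2 by 1.35 on the log2 scale (adjusted p = 7.9e-04). Fads3 spanned 0.86 (adjusted p = 0.0030) and Elovl5 0.74 (adjusted p = 0.012), both also highest in number 3 and lowest in number 2. Scd2 went the other way, lowest in number 3, across 0.80 (adjusted p = 0.0031). Fads1 and Fads2 were likewise lowest in number 3, across 0.33 and 0.37 (adjusted p = 0.044 and 0.037), so that Fads3 parted from both neighbours. Fasn was highest in number 2, across 0.76 (adjusted p = 0.0019), as was Elovl6, across 0.47 (adjusted p = 0.031). Scd1 spanned 0.50 (adjusted p = 0.035), and Elovl1 was the member that did not pass (0.16, adjusted p = 0.48).

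Markers of other cells moved with the number as well. Mast cell and basophil markers summed to 60.1, 35.7 and 6.93 CPM on average in numbers 1, 2 and 3, megakaryocyte markers to 229, 166 and 51.6 CPM, and erythroid markers to 7307, 6928 and 8966 CPM. Neutrophil markers summed to 0.163, 27.2 and 9.67 CPM and monocyte and macrophage markers to 3.40, 6.67 and 3.51 CPM, both highest in number 2. Their part in the differences between numbers was not tested. With no filter on low counts 5 members in place of 9 differed between the numbers.

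**Figure D4:**
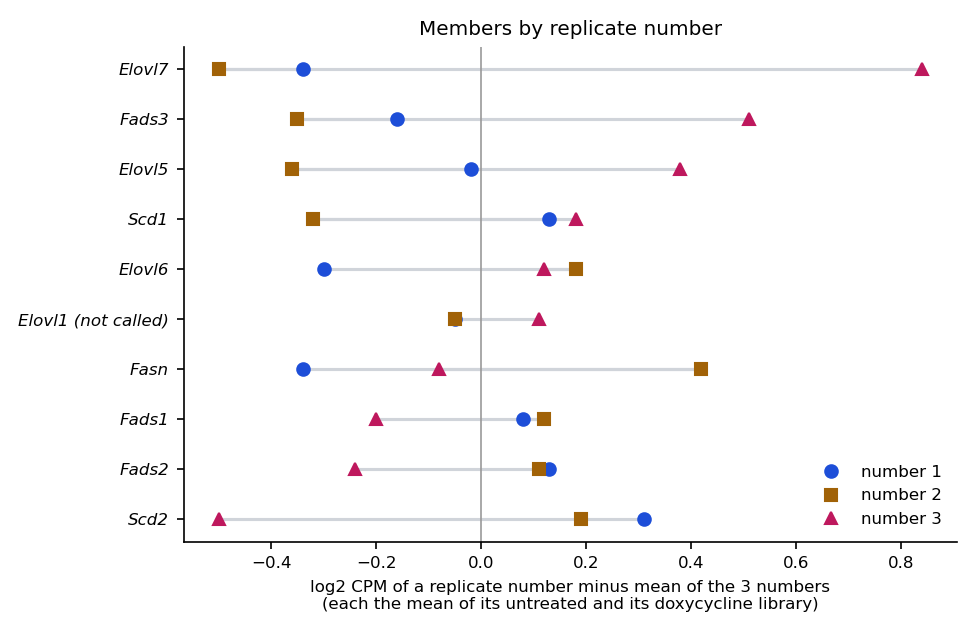
Mean log2 CPM of each replicate number (mean of its untreated and its doxycycline library) minus the mean of the 3 numbers, for each member. Number 3 is highest for Elovl7 (0.84), Fads3 (0.51) and Elovl5 (0.38) and lowest for Scd2 (-0.50), Fads2 (-0.24) and Fads1 (-0.20).

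The wider pathway was read from 7 lists with 124 tested genes, drawn up from general knowledge. Without the block 3 of the 124 passed, 1 higher and 2 lower, and with the block 20 rose and 33 fell. Each count below can be set beside the shares of all genes that passed. These were 2.59% without the block (0.417% higher, 2.18% lower) and 25.8% with it (10.3% higher, 15.6% lower). At an unadjusted p under 0.05 the share was 15.4%, and by DESeq2 7.15%. With the block 5 of 14 other enzymes of desaturation and elongation rose, by 0.31 to 0.78 on the log2 scale, and 3 fell. The 5 were Cyb5r1, Cyb5r3 and Cyb5r4 (reductases of the cytochrome b5 type), Degs1 (a dihydroceramide desaturase) and Hacd1 (a dehydratase of the elongation cycle). These 5, and Fads6 among the 3 that fell, were picked with their values in view. Fads6 averaged 4.98 ± 2.24 CPM untreated and 2.98 ± 1.27 CPM with doxycycline (SD, n = 3 each). Its edgeR adjusted p was 0.555 without and 0.0051 with the block. None of these 14 passed without it, 3 had an unadjusted p under 0.05, and DESeq2 called 1. Cyb5b, a cytochrome b5 of the outer mitochondrial membrane, averaged 202 ± 6.20 CPM untreated and 153 ± 8.32 CPM with doxycycline. It fell with the block (-0.40, SE 0.08, edgeR adjusted p = 0.0062) and was not called without it (-0.40, SE 0.12, adjusted p = 0.145). Hsd17b12, the ketoreductase of the elongation cycle, stood at 175 ± 35.7 and 138 ± 26.7 CPM (SD, n = 3 each for both genes). It likewise fell with the block (-0.34, SE 0.09, edgeR adjusted p = 0.0155) and was not called without it (-0.34, SE 0.20, adjusted p = 0.51).

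The genes that supply acetyl-CoA, malonyl-CoA and NADPH changed in both directions with the block, where 2 of 15 rose and 6 fell. None passed without it, 6 had an unadjusted p under 0.05, and DESeq2 called 2. Acly, which makes cytosolic acetyl-CoA from citrate, averaged 474 ± 19 CPM untreated and 389 ± 25.0 CPM after induction. It fell with the block (-0.29, SE 0.09, edgeR adjusted p = 0.034) and was not called without it (-0.28, SE 0.12, adjusted p = 0.31). Pgd, an enzyme of the pentose phosphate pathway that yields NADPH, stood at 420.5 ± 81.0 and 263 ± 41.3 CPM (SD, n = 3 each for both genes). It fell with the block too (-0.67, SE 0.09, edgeR adjusted p = 3.4e-04) and was not called without it (-0.68, SE 0.19, adjusted p = 0.125). Acss1, which makes mitochondrial acetyl-CoA from acetate, rose with the block (0.60, SE 0.08), while Idh1, a source of cytosolic NADPH, and Acaca, which makes malonyl-CoA, fell with it (-0.97, SE 0.12, and -0.33, SE 0.10). These 3 were picked with their values in view. The median over the list was -0.04.

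Of 21 genes of SREBP, liver X receptor and PPAR control none passed without the block, 2 had an unadjusted p under 0.05, DESeq2 called 1, and with the block 2 rose and 3 fell. Srebf2, which encodes SREBP2, stood at 220 ± 7.69 and 192 ± 15.7 CPM, a log2 difference of -0.19 (SE 0.12) that passed in neither fit (SD, n = 3 each; edgeR adjusted p = 0.54 without and 0.14 with the block). Srebf1, named for its part in fatty acid synthesis, had a log2 difference of -0.18 (SE 0.13, adjusted p = 0.59 without and 0.16 with the block). The 5 genes that changed with the block were named after their values were seen. Rxra, the partner of the liver X receptors and PPARs, and Mbtps1, a protease that cleaves SREBPs, rose (1.27, SE 0.16, and 0.27, SE 0.08). The cholesterol exporters Abca1 and Abcg1 and the SREBP retention factor Insig2 fell (-1.35, SE 0.19, -0.74, SE 0.13, and -0.55, SE 0.10). Abca1 differed widely between the numbers, at 7.64, 16.5 and 2.18 CPM in the untreated libraries.

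Beyond synthesis, 3 genes passed without the block, 1 in each of 3 lists. Lpcat2, an acyltransferase of phospholipid remodelling, was the member of 22 glycerolipid genes that fell, from 61.2, 48.8 and 47.2 to 7.19, 4.97 and 5.32 CPM (-3.17 on the log2 scale, SE 0.22, adjusted p = 0.0030). Acsbg1, an acyl-CoA synthetase of long and very long chains, was the member of 15 uptake and activation genes that fell, from 3.11, 4.77 and 3.08 to 0.351, 0.637 and 0.472 CPM (-2.90, SE 0.34, edgeR adjusted p = 0.013). Acot2, a mitochondrial thioesterase, was the member of 9 thioesterases that rose, from 6.48, 8.07 and 6.36 to 16.2, 17.4 and 28.8 CPM (1.58, SE 0.26, adjusted p = 0.028). The groups of these 3 genes did not overlap. The call of Acot2 was lost on leaving out any single library but doxycycline replicate 3 (1.52 to 1.73) and with no filter on low counts (1.63), and that of Acsbg1 without untreated replicate 2 (-2.67) or doxycycline replicate 1 (-2.72). Acot2 has near-identical relatives, and Lpcat2 shares exons with an antisense gene, so their reads may be divided differently by another counting.

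With the block 4 glycerolipid genes rose and 8 fell, 2 uptake genes rose and 5 fell, and 2 thioesterases rose and 2 fell. Without the block 8 glycerolipid genes, 6 uptake genes and 2 thioesterases had an unadjusted p under 0.05 in edgeR. DESeq2 called 5, 1 and 2 of them in the same order of lists. Of the acyltransferases, named after their values were seen, Lpcat1 and Mboat2 rose with the block (0.60, SE 0.10, and 0.63, SE 0.11). Lpcat3, which places polyunsaturated chains into phospholipids, fell with the block, from 129.5 ± 10.01 to 89.7 ± 2.81 CPM (SD, n = 3 each; log2 fold change -0.53, SE 0.09). Of 28 genes of fatty acid oxidation none passed without the block, 4 had an unadjusted p under 0.05, DESeq2 called 1, and with the block 3 rose and 6 fell. Hadha, of the mitochondrial trifunctional protein, stood at 198 ± 11.1 and 197 ± 14.6 CPM, with no stable sign (-0.01 on the log2 scale, SE 0.12, edgeR adjusted p = 0.985). Its exons overlap Garem2 on the other strand. Etfa, an electron carrier of this pathway, stood at 122 ± 6.35 and 145 ± 17.0 CPM (0.25, SE 0.14, adjusted p = 0.46; SD, n = 3 each).

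**Figure D5:**
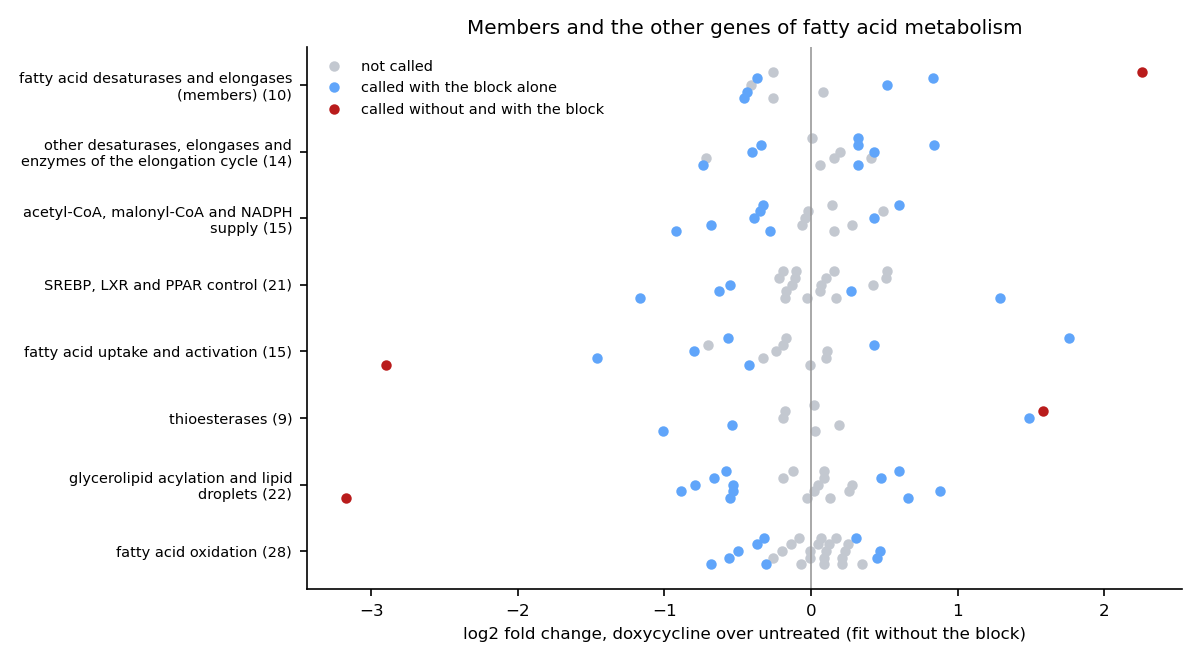
Log2 fold change of every tested gene of the 10 members and of the 7 other lists (rows, number of genes in brackets), from the fit without the block. Red points passed without and with the block, blue points with the block alone, and grey points in neither, and most points of every list lie within 1 of 0.

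Among genes with a mean of 5 CPM or more, those whose log2 CPM followed Fads3 most closely over the 6 libraries were Trim10 (Pearson r = 0.997), an erythroid TRIM protein gene, Cpox (r = 0.994), an enzyme of heme synthesis, and Slc51a, Ssbp2 and Dtl (r = 0.992 each). The value describes 6 libraries that fall into 2 groups and 3 numbers. Their log2 fold changes, between 0.54 and 0.96, were smaller than that of Fads3. Exons of Cpox, Slc51a and Ssbp2 overlap other genes on the opposite strand.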

How the data were processed

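RNA of 3 untreated and 3 doxycycline cultures was sequenced from 300 ng of total RNA with the Illumina TruSeq v2 kit, per the labels' protocols. The authors deposited raw read counts per gene symbol. STAR, DESeq2, bcl2fastq 2.17.1.14 and the builds mm10 and GRCm38 are named in the submitters' processing notes, without roles. Counter, annotation and strand setting: not given in the sources used here. The smallest deposited count was 1 in every column, so that 1 seems to have been added.

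Columns were matched to samples by name. In R 4.3.3, edgeR 4.0.16 (with limma 3.58.1) fitted the counts with TMM factors after filterByExpr, and its two-sided quasi-likelihood test was run on 14158 genes, with Benjamini-Hochberg adjustment over all of them and a threshold of 0.05. The SE of a log2 fold change was derived from its F statistic. CPM use TMM-scaled library sizes. Marker sums use counts less 1 over library totals. Both fits were run on simulated counts with known changes, where a check on recovery was set for the block fit alone. That run is no check of the fit without the block at its spread in these data. Alternatives were DESeq2 1.42.0, other scalings, no filter, 1 taken off every value, libraries left out and the replicate number as a block. The numbers were taken to pair the cultures because deviations from the group means correlated at 0.77, 0.74 and 0.72 within numbers 1, 2 and 3, and at -0.59 to -0.09 between unlike numbers, which such deviations make negative on balance. With the block the biological coefficient of variation was 11.3% in place of 28.6%, on 2 residual degrees of freedom in place of 4. Leaving a replicate number out of the block fit leaves fewer still.

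Lengths, positions and overlaps come from GENCODE M21 (GRCm38), and the length that the authors' counting covered is unknown. The members and all lists were chosen with earlier results of these data known. Named genes are the members, Spi1, for each list the 3 or fewer genes that passed with the lowest adjusted p (where none passed, its 2 highest in CPM), the marker of each cell type with the highest CPM and the 5 genes most like Fads3. Of 243 list entries, 22 were not analysed here because no symbol of the table matched. A gene that the rule for named genes gives is not reported here.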

Additional observations from a re-analysis of the deposited data

How the results depend on the processing

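The numbers below are calls at an adjusted p under 0.05 unless named as log2 fold changes. Over all genes 367 were called, against 3658 with the replicate block, 66 with no filter on low counts, 1013 by DESeq2 and, with the block, 3402 by DESeq2. Leaving out a single library gave 38 to 268, and leaving out a replicate number in the block fit, an alternative chosen after seeing the data, gave 1248, 3429 and 4748 for numbers 1, 2 and 3. Of the members 1 was called, against 6 with the block, 0 with no filter (3 at an unadjusted p under 0.05 in edgeR), 2 by DESeq2 (6 with the block), 0 to 2 without single libraries (3 to 5 at an unadjusted p under 0.05) and 3, 5 and 8 with the block without numbers 1, 2 and 3. Both block fits called the same 6 members. Of 124 pathway genes 3 were called, against 53 with the block, 2 with no filter, 13 by DESeq2 (50 with the block), 1 to 3 without single libraries and 18, 45 and 63 with the block without numbers 1, 2 and 3. Differences between numbers were called for 9 members, and for 5 with no filter. With no filter 25628 genes were tested in place of 14158, and the cause of the lower counts was not tested. The sign turned for Scd1 (-0.06 without untreated replicate 2, -0.08 without doxycycline replicate 1, a range of -0.08 to 0.28 over the 6 libraries left out, and -0.07 with the block without number 1), Elovl7 (0.14 without untreated replicate 3, range -0.97 to 0.14) and Hadha (0.00 to 0.04 under 10 alternatives, among them 0.01 by DESeq2 and its size factors, 0.04 with no filter, 0.00 and 0.02 with the block without numbers 1 and 3, and a range of -0.07 to 0.03 over the libraries left out). All other members kept their sign under every alternative. No scaling moved the median log2 fold change of all genes by over 0.1.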
